A study of Mus musculus with 8 samples.

Results

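The troponin complex sits at intervals along the thin filament of striated muscle and has 3 subunits. Troponin T ties the complex to tropomyosin, troponin I holds back the binding of myosin to actin, and troponin C binds calcium and releases that block. Slow-twitch and fast-twitch fibres of skeletal muscle each use their own gene for each subunit. The slow set is Tnnt1, Tnni1 and Tnnc1, and the fast set is Tnnt3, Tnni2 and Tnnc2. Tnnc1 also encodes the troponin C of the heart, whose troponin T and troponin I come from Tnnt2 and Tnni3. The 6 skeletal genes were taken by symbol from a table of 54091 rows, and each symbol had 1 row. All 6 passed the filter on low values and were among the 15657 genes tested.

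RNA was sequenced from white quadriceps, the pale part of the thigh muscle in which fast, glycolytic fibres predominate. All mice were male, 11 to 14 weeks old, and had eaten a high fat diet (60% fat) for 7 days. The 4 control libraries (replicates 1 to 4) had the genotype Loxp/Loxp at Acot2, with no Cre. The 4 knockout libraries (replicates 5 to 8) had Cre under the name CKM Cre, where CKM stands for the muscle form of creatine kinase, and their genotype is given as a loss of Acot2 in muscle. Acot2 encodes a mitochondrial acyl-CoA thioesterase, and the series asks how its loss bears on fat oxidation in glycolytic muscle. Cre was present in the knockout libraries only, so an effect of Cre and an effect of losing Acot2 cannot be told apart. The labels do not state whether the libraries are from different animals, so the p-values cover the spread between samples as deposited, which may be technical.

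The deposited values gave back 55283997 to 109101290 reads per library. Acot2, the targeted gene, had normalized counts of 2166 to 4165 in the 4 control libraries and 256.4 to 354.0 in the 4 knockout libraries, and it was the only gene of the 15657 that passed the test (log2 difference -3.24, limma, adjusted p = 4.72e-06). A normalized count is the number of reads on a gene divided by a size factor of the library, with no division by gene length. Control replicates 3 and 4 stood apart from the other 6 libraries in how long and short transcripts were represented. Among the 3785 genes in the shortest quartile of exon length (merged exons of 2392 bases or less), the median deviation from each gene's mean was -0.29 and -0.31 on the log2 scale in these 2 libraries and 0.06 to 0.17 in the other 6. In the longest quartile it was 0.23 and 0.27 against -0.12 to -0.04. Knockout replicate 8 stood apart in another way, with transcripts of heart muscle that are described beside the cardiac troponins. The values of the main results without these libraries stand beside them.

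The 3 slow genes varied together across the libraries. The sequence before their start sites is shown first, and its part in that variation was not tested. Each stretch of 220 bases ends 31 bases before the RefSeq transcript start (GRCm38.p6) and is written in the direction of transcription, with every match to the E-box motif CANNTG, the letters recognised by the MyoD family, in capitals. RefSeq windows were found for 4 of the 6 genes, the slow genes and Tnnc2. Tnnt3 and Tnni2 are named only. For each slow gene only 1 window is shown. Those of Tnnt1 and Tnni1 lie inside the gene bounds given below, so some annotated transcripts of these genes start further upstream. The Tnnt1 stretch is chr7:4516006-4516225 on the minus strand, that of Tnni1 is chr1:135799171-135799390 on the plus strand, and that of Tnnc1 is chr14:31208062-31208281 on the plus strand.
Tnnt1: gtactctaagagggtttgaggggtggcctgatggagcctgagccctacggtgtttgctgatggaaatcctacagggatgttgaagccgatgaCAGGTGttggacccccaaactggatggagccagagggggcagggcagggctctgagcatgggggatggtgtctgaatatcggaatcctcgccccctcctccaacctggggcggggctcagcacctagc
Tnni1: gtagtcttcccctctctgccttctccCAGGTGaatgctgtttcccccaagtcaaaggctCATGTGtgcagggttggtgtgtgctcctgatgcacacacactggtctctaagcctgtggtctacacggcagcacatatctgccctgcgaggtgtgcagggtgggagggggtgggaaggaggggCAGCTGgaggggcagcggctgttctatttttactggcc
Tnnc1: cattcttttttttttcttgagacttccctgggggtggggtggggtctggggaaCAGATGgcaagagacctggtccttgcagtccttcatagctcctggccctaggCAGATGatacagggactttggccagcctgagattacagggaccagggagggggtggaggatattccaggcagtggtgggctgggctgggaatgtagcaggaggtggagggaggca
Tnnt1 had 1 E-box, 158 bases before the start. Tnni1 had 3, at 224, 191 and 68 bases, and Tnnc1 had 2, at 197 and 145 bases. Of 32851 mouse windows of the same length, 62.1% held at least 1 E-box. The CACC box, searched as CCACCC, matched once in Tnnt1, 2 times in Tnni1 and 3 times in Tnnc1, against 25% of all windows with a match. A pair of the matches in Tnnc1 share a base, and no match of 1 motif overlapped a match of another. The M-CAT motif, searched as CATTCC, matched once, in Tnnc1, 58 bases before the start (11.4% of all windows). The letters of the MEF2 site, the CArG box and the TATA box (TATAAA) were not in any of the 3 windows. They occur in 2.6%, 1.3% and 9.95% of all windows. Both strands were searched. Bases nearer to the start than 31 lay outside the windows, so a TATA box there could not have been found. These matches describe letters and no binding was measured.

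None of the 6 skeletal troponin genes passed the test between knockout and control. The fast troponin I gene Tnni2 came nearest, with every knockout library above every control library and a mean 1.49 times as high. The 3 slow genes spanned 9.45-fold to 10.4-fold across the 8 libraries (6.19-fold to 8.27-fold within the control and 4.85-fold to 5.32-fold within the knockout group), and Tnnt3 stayed within 1.41-fold. The slow to fast ratios of the groups overlapped. Of the 6 genes, 0 had an adjusted p under 0.05 in limma, beside 0.00639% of all genes tested, and 1 had an unadjusted p under 0.05, beside 26.9% of all genes tested. All 6 estimates were positive, as were 50.3% of all estimates.

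The levels of the 2 sets differed by orders of magnitude. Per kilobase of merged exons, the mean normalized count over the 8 libraries was 1141000 for Tnnt3 and 629200 for Tnni2. It was 3268 for Tnnc1, 2125 for Tnnt1 and 706.5 for Tnni1, the slow genes. In library totals not divided by length, Tnnt3 held 2.5% of all normalized counts and ranked 4th among all genes by mean, and Tnni2 held 1.31% and ranked 9th. The exception to the high fast levels was Tnnc2, the fast troponin C gene, with 121.7 normalized counts per kilobase, below all 3 slow genes.

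**Figure D1:**
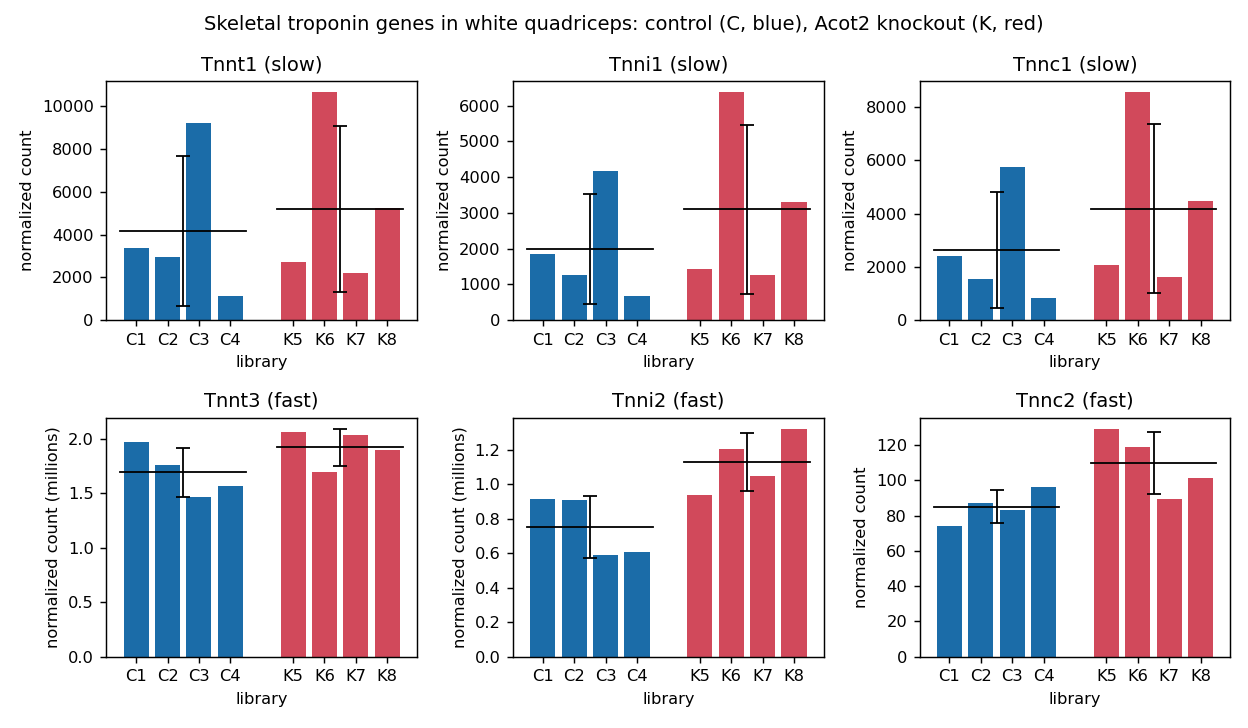
Normalized counts (vertical axes, linear from 0, with the larger unit of Tnnt3 and Tnni2 printed on their axes) of the 6 skeletal troponin genes in each library: C1 to C4 are the control replicates and K5 to K8 the knockout replicates. Horizontal lines are group means and error bars 1 SD (n = 4 each). The slow genes in the upper row peak in C3 and K6, and Tnni2 is the one gene whose groups do not overlap.

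Tnnt1 encodes slow troponin T. It lies on chromosome 7 (4504570 to 4516382, minus strand, GRCm38). In normalized counts, control replicates 1, 2, 3 and 4 had 3391, 2967, 9217 and 1115 and knockout replicates 5, 6, 7 and 8 had 2700, 10644, 2195 and 5237. The highest value was in knockout replicate 6, the next in control replicate 3, and the lowest in control replicate 4, so the groups overlapped. The means were 4172 ± 3505 in control and 5194 ± 3869 in knockout libraries (SD, n = 4 each). On the log2 scale, knockout minus control was 0.42 ± 0.75 (SE; limma, adjusted p = 0.754), and the exact permutation test, two-sided, gave p = 0.629. Its sign rested on single libraries: the difference was -0.09 without control replicate 4, -0.02 without knockout replicate 6 and 0.93 without control replicate 3.

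Tnni1 encodes slow troponin I and lies on chromosome 1 (135779434 to 135810989, plus strand). Control replicates 1, 2, 3 and 4 had 1850, 1271, 4170 and 674.1 normalized counts, and knockout replicates 5, 6, 7 and 8 had 1444, 6371, 1252 and 3317. The same 2 libraries, knockout replicate 6 and control replicate 3, were highest, and control replicate 4 was again lowest. The means were 1991 ± 1530 and 3096 ± 2374 (SD, n = 4 each), or 0.63 ± 0.72 as a log2 difference (SE; limma, adjusted p = 0.606; permutation p = 0.457, exact and two-sided). Leaving out 1 library at a time moved it between 0.18, without knockout replicate 6, and 1.09, without control replicate 3.

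Tnnc1, for the troponin C of slow fibres and heart, lies on chromosome 14 (31208312 to 31211729, plus strand). Normalized counts of 2406, 1557, 5736 and 820.7 were found in controls 1, 2, 3 and 4, and of 2076, 8550, 1606 and 4462 in knockouts 5, 6, 7 and 8. The order of the 4 highest libraries was the one seen for Tnnt1 and Tnni1: knockout replicate 6, control replicate 3, knockout replicate 8 and control replicate 1. The means were 2630 ± 2170 and 4173 ± 3174 (SD, n = 4 each), or 0.71 ± 0.75 as a log2 difference (SE; limma, adjusted p = 0.572; permutation p = 0.429, exact and two-sided). Leaving out 1 library at a time moved it between 0.26, without knockout replicate 6, and 1.21, without control replicate 3. Without control replicates 3 and 4 together, Tnnt1, Tnni1 and Tnnc1 stood at 0.43, 0.70 and 0.80, and without these and knockout replicate 8 at 0.33, 0.56 and 0.66, and none passed (limma). In bulk muscle, a difference in the number of slow fibres and a difference in slow troponin RNA per fibre cannot be told apart.

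Within the slow set the proportions between the genes varied less than their levels. Tnnc1 was 122 to 144 counts per 100 of Tnni1, a 1.18-fold range over the 8 libraries. Tnni1 was 42.8 to 63.3 per 100 of Tnnt1, a 1.48-fold range, and Tnnc1 to Tnnt1 spanned 1.62-fold. Tnnc1 per 100 of Tnnt1 was 71.0, 52.5, 62.2 and 73.6 in controls 1, 2, 3 and 4, and 76.9, 80.3, 73.2 and 85.2 in knockouts 5, 6, 7 and 8. In this last proportion 3 of the 4 knockout libraries lay above all controls and the fourth, knockout replicate 7, lay below control replicate 4. These proportions within a set were chosen after the values had been seen and were not tested.

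**Figure D2:**
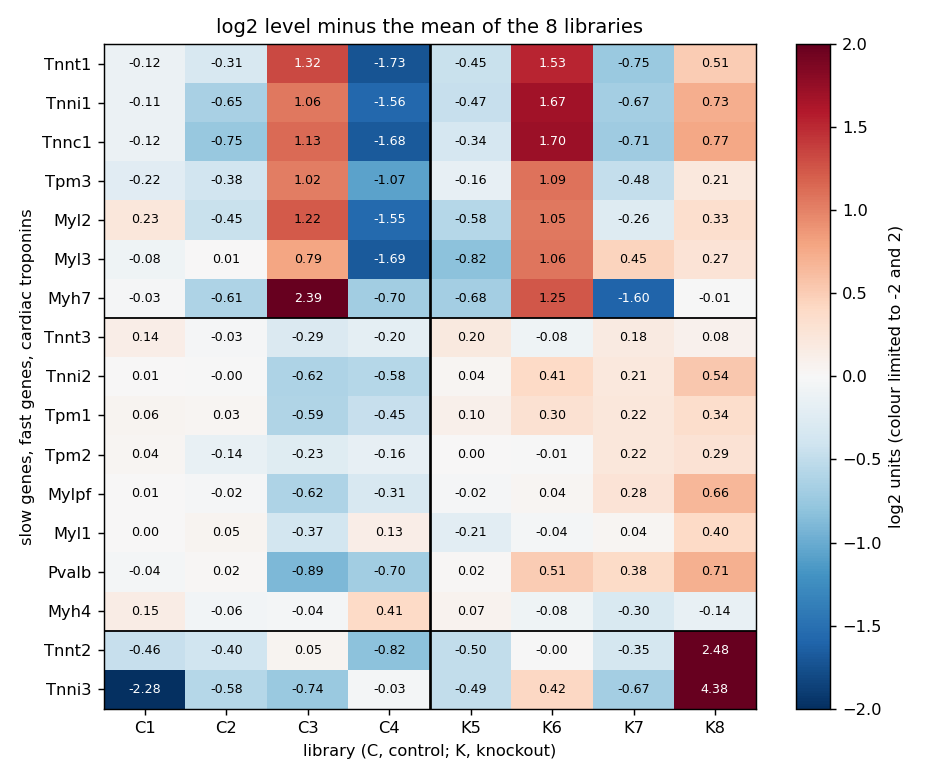
Each cell gives a gene's log2 level in 1 library minus the mean of that gene over the 8 libraries, from blue (lower) to red (higher), with the colour limited to -2 and 2. The black lines divide control (C) from knockout (K) libraries, and slow genes from fast genes from cardiac troponins. The slow rows share the high libraries C3 and K6 and, except Myh7, the low library C4, and the cardiac rows stand out in K8.

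Tnnt3, for fast troponin T, lies on chromosome 7 (142498836 to 142516009, plus strand). Controls 1, 2, 3 and 4 had 1971824, 1763487, 1463001 and 1565182 normalized counts, and knockouts 5, 6, 7 and 8 had 2058696, 1694348, 2036837 and 1894780. Control replicates 3 and 4 were lowest, and control replicate 1 lay above 2 of the knockout libraries, so the groups overlapped. The means were 1691000 ± 225000 and 1921000 ± 167800 (SD, n = 4 each). On the log2 scale this was a difference of 0.19 ± 0.13 (SE; limma, adjusted p = 0.372; permutation p = 0.171, exact and two-sided). Without control replicates 3 and 4 the difference was 0.04. With the trend on exon length and GC content removed from each library it was -0.04, the opposite sign.

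Tnni2, for fast troponin I, lies on chromosome 7 (142441808 to 142444410, plus strand), on the same strand as Tnnt3 and 54.4 kb from it. Controls 1, 2, 3 and 4 had 914864, 907286, 590549 and 609513 normalized counts, and knockouts 5, 6, 7 and 8 had 938241, 1205081, 1048939 and 1320725. All 4 knockout libraries lay above all 4 controls, by little for knockout replicate 5. This made 1 of 6 genes without overlap, beside 13.1% of all genes tested (6.06% higher and 7.06% lower). The means were 755600 ± 179800 and 1128000 ± 168700 (SD, n = 4 each). As a log2 difference, 0.60 ± 0.17 (SE) did not pass over all genes (limma, adjusted p = 0.0810). An exact permutation test, two-sided, gave the smallest p that groups of 4 allow, 0.0286.

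The Tnni2 value depended on control replicates 3 and 4, the 2 libraries in which short transcripts were low. The merged exons of Tnni2 cover 1497 bases, within the shortest quartile. Tpm1, with merged exons of 6485 bases, was also lowest in these 2 libraries. The part of transcript length in the Tnni2 value was not tested. Without these 2 libraries the log2 difference was 0.30 (limma, adjusted p = 0.630), and without them and knockout replicate 8 it was 0.22 (adjusted p = 0.907). With the length and GC trend removed from all 8 libraries it was 0.32 (limma, adjusted p = 0.131). The gene passed without control replicate 1 (0.70, limma, adjusted p = 0.0362), without control replicate 2 (0.70, adjusted p = 0.0286) and with sample quality weights (0.60, adjusted p = 0.0459), settings that also raised the number of genes called over the whole table from 1 to 1720, 2048 and 1201.

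Between Tnni2 and Tnnt3 lies 1 other protein-coding gene, Lsp1, which encodes an actin-binding protein of leukocytes. Lsp1 had 2242, 2160, 1772 and 1843 normalized counts in controls and 2591, 2635, 2817 and 2862 in knockouts, without overlap. The difference was 0.45 ± 0.11 on the log2 scale (SE; limma, adjusted p = 0.0796), and 0.31 without control replicates 3 and 4 (adjusted p = 0.598). Lsp1 passed in the same 3 settings as Tnni2 (limma, adjusted p = 0.0273 to 0.0407). The 5 macrophage markers in the lists also had positive differences, with summed counts of 3137 to 4165 in control and 4508 to 6992 in knockout libraries. The part of macrophages in the Lsp1 value was not tested. Tnni1 and Tnnt2 lie 25.4 kb apart on chromosome 1, and Tnni3 and Tnnt1 lie 1.9 kb apart on chromosome 7, so each of these 3 pairs holds 1 troponin I gene and 1 troponin T gene.

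Tnnc2, for fast troponin C, had 73.9, 87.4, 82.9 and 96.4 normalized counts in controls 1, 2, 3 and 4, and 129.0, 118.7, 89.6 and 101.3 in knockouts 5, 6, 7 and 8. These rest on 70 to 142 recovered reads per library. Knockout replicate 7 lay below control replicate 4, and the other 3 knockout libraries lay above all controls. The means were 85.1 ± 9.38 and 109.6 ± 17.6 (SD, n = 4 each), or 0.35 ± 0.22 as a log2 difference (SE; limma, adjusted p = 0.321; permutation p = 0.0571, exact and two-sided). With the length and GC trend removed it was 0.07.

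The Tnnc2 count is uncertain, since most of the gene shares its bases with a neighbour on the opposite strand. Tnnc2 lies on the minus strand of chromosome 2 (164777161 to 164779967), and 1 of its 2 annotated transcripts has 6 exons and 700 bases. The last exon of Ube2c, a ubiquitin-conjugating enzyme of the cell cycle on the plus strand, runs from 164777190 to 164778822 in the longer of its transcripts. It covers 592 of the 700 bases (84.6%), with 4 Tnnc2 exons wholly inside it, and 74.0% of the merged exons of both transcripts. In the transcript of 700 bases, the 108 that are not shared are the first exon and the end of the sixth. The other 5 skeletal troponin genes share no exon bases with another gene in this annotation (GENCODE, GRCm38), and the annotation behind the counts may be another. Whether the counting used strand, and how it treated a read that fits both genes, is not given in the sources used here, and the part of the overlap in the low count was not tested. Ube2c itself had normalized counts of 73.9, 129.6, 92.0 and 61.1 in control and 115.4, 100.6, 144.9 and 161.1 in knockout libraries. Both genes of the pair thus had low counts, and the overlap takes up 22.8% of the merged exons of Ube2c.

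**Figure D3:**
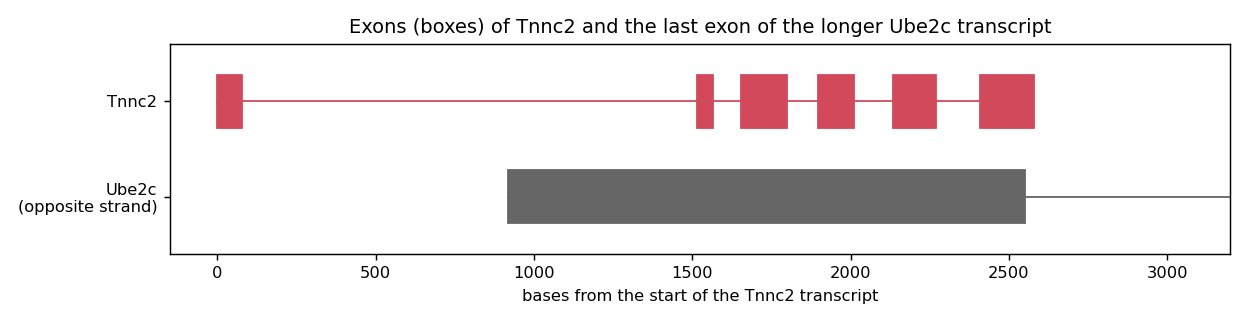
Exons of the Tnnc2 transcript of 700 bases (boxes, upper row) and the last exon of the longer Ube2c transcript (lower row), which is on the opposite strand. The horizontal axis gives bases from the start of the Tnnc2 transcript. The Ube2c exon covers exons 2 to 5 of Tnnc2 and 144 of the 173 bases of exon 6. In all it covers 592 of the 700 bases of the Tnnc2 transcript.

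The slow to fast ratio of each subunit was formed within each library, where the size factor cancels. For troponin T, Tnnt1 counts per 100 Tnnt3 counts were 0.172, 0.168, 0.630 and 0.0712 in controls 1, 2, 3 and 4, and 0.131, 0.628, 0.108 and 0.276 in knockouts 5, 6, 7 and 8. Control replicate 3 and knockout replicate 6 were nearly equal at the top, and control replicate 4 was lowest. The means were 0.260 ± 0.251 and 0.286 ± 0.240 per 100 (SD, n = 4 each). The difference of the log2 ratios was 0.23 with a standard error of 0.87 (exact two-sided permutation p = 0.771, adjusted p = 0.914 over the 3 ratios).

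For troponin I, Tnni1 counts per 100 Tnni2 counts were 0.202, 0.140, 0.706 and 0.111 in controls 1, 2, 3 and 4, and 0.154, 0.529, 0.119 and 0.251 in knockouts 5, 6, 7 and 8. The order of the 3 highest libraries was again control replicate 3, knockout replicate 6 and knockout replicate 8. The means were 0.290 ± 0.280 and 0.263 ± 0.186 per 100 (SD, n = 4 each), with the control mean the higher one. On the log2 scale the difference was 0.04 with a standard error of 0.76 (exact two-sided permutation p = 0.914, adjusted p = 0.914 over the 3 ratios). Divided by exon length, the ratios ran from 0.0512 to 0.453 slow per 100 fast for troponin T and from 0.0460 to 0.294 for troponin I.

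For troponin C the count ratio of Tnnc1 to Tnnc2 was 32.6, 17.8, 69.2 and 8.51 in controls 1, 2, 3 and 4, and 16.1, 72.1, 17.9 and 44.0 in knockouts 5, 6, 7 and 8. The slow gene thus outnumbered the fast one, the reverse of the other 2 subunits, and this ratio is as uncertain as the Tnnc2 count. The means were 32.0 ± 26.7 and 37.5 ± 26.3 (SD, n = 4 each), and the log2 ratios differed by 0.36 with a standard error of 0.83 (exact two-sided permutation p = 0.600, adjusted p = 0.914 over the 3 ratios). Without control replicates 3 and 4 the log2 differences of the troponin T, I and C ratios were 0.39, 0.40 and 0.36, and without knockout replicate 8 they were 0.13, -0.02 and 0.18. The 3 ratios are not independent, since the numerators moved together. Over the 8 libraries they spanned 8.85-fold, 6.38-fold and 8.46-fold, more than any difference between the group means.

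**Figure D4:**
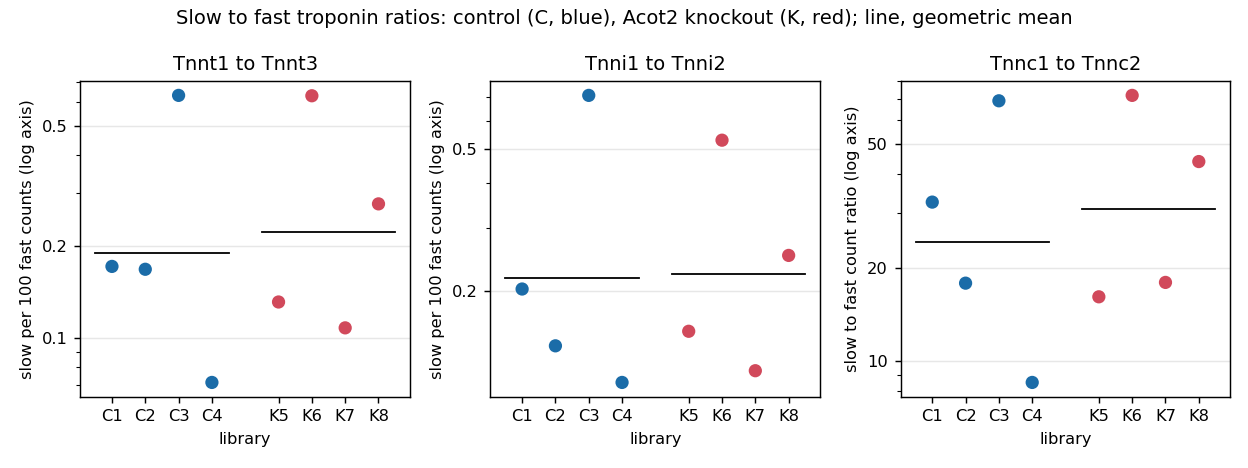
Slow to fast count ratio of troponin T, troponin I and troponin C in each library (points, vertical log axes; slow counts per 100 fast counts for T and I, plain ratio for C) with the geometric mean of each group as a line. C3 and K6 are the highest libraries and C4 the lowest in all 3 panels, and the groups overlap.

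The tropomyosins, the coiled-coil partners to which troponin T binds, were measured beside them. Tpm3, which encodes the slow tropomyosin among its products, had 6174, 5518, 14567 and 3415 normalized counts in controls 1, 2, 3 and 4, and 6448, 15351, 5160 and 8323 in knockouts 5, 6, 7 and 8. It was highest in knockout replicate 6 and control replicate 3 and lowest in control replicate 4, as the slow troponins were, with a log2 difference of 0.33 (limma, adjusted p = 0.704). Tpm1, the fast fibre and cardiac tropomyosin, had 1847188, 1818729, 1177911 and 1297856 in controls and 1900173, 2184845, 2073734 and 2258447 in knockouts, without overlap. Its difference was 0.48 ± 0.16 on the log2 scale (SE; limma, adjusted p = 0.0940). Without control replicates 3 and 4 it was 0.20, and it passed without control replicate 1 (0.58, limma, adjusted p = 0.0435) and without control replicate 2 (0.57, adjusted p = 0.0402). With the length and GC trend removed it rose to 0.615 (limma, adjusted p = 0.0823). Tpm2, which encodes beta-tropomyosin, and Tpm4, known mainly from non-muscle cells, had log2 differences of 0.25 and 0.05 (limma, adjusted p = 0.202 and 0.813). Of the 4 tropomyosins 0 passed over all genes, and 1 was higher at an unadjusted p under 0.05, beside 13.6% of all genes.

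**Figure D5:**
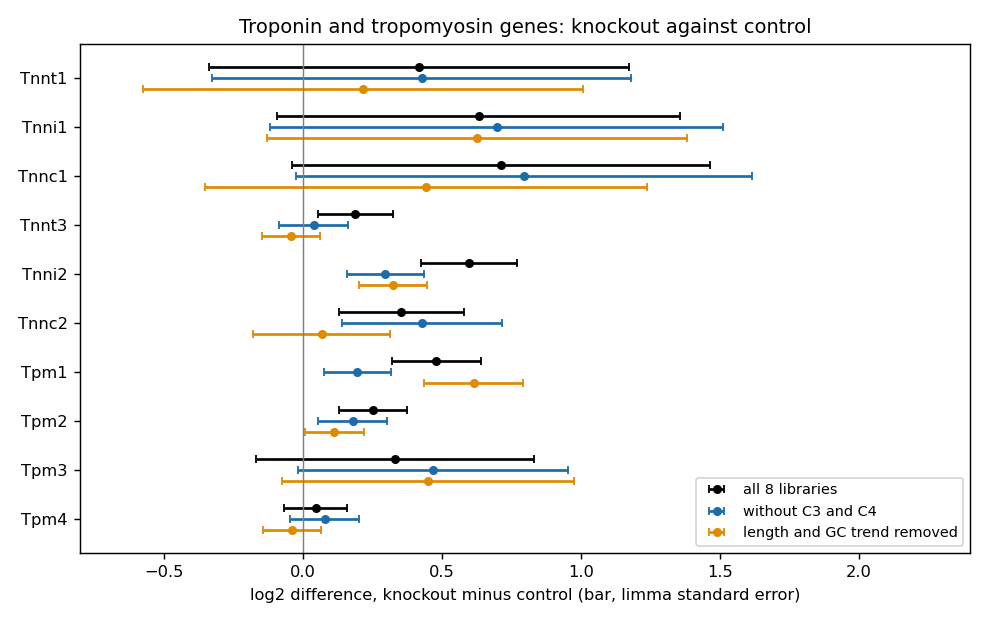
Log2 difference, knockout minus control (horizontal axis), of the 6 skeletal troponins and the 4 tropomyosins, with limma standard errors as bars, for all 8 libraries (black), without control replicates 3 and 4 (blue) and with the length and GC trend removed (orange). Tnni2 stands at 0.60, 0.30 and 0.32, and Tnnt3 moves from 0.19 to 0.04 and -0.04. Tpm1 stands at 0.48, 0.20 and 0.615.

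The other partners of the complex were described from lists, none of which had a member with an adjusted p under 0.05. At an unadjusted p under 0.05, 0 of 13 thin filament partners were higher and 3 were lower, beside 13.6% and 13.3% of all genes, the shares against which each further list is read. The median difference of this list was -0.04, against 0.003 over all genes. The 3 were Neb, the giant ruler protein nebulin (-0.86, limma, adjusted p = 0.0796), Nrap, an actin-anchoring protein (-0.64, adjusted p = 0.0796), and Tmod1, which caps the pointed end of the filament (-0.66, adjusted p = 0.0987). Without control replicates 3 and 4 they stood at -0.38, -0.43 and -0.25. Of 12 slow thick filament and calcium partners 1 was higher and 0 lower at that level, the light chain gene Myl6b (0.60, limma, adjusted p = 0.150), which stood at 0.12 without control replicates 3 and 4 and at 0.07 without these and knockout replicate 8. The list median was 0.14. Mybpc1 and Casq2, a myosin-binding protein and the slow calsequestrin, had -0.18 and 0.33. Of 12 fast partners 3 were higher and 2 lower, with a median of -0.08. Estimates in this list were positive for 6 genes and negative for 6. The 3 higher ones, which had the smallest p of the list, were Pvalb, the calcium buffer parvalbumin (0.81, limma, adjusted p = 0.0796), Casq1, the fast calsequestrin (0.44, adjusted p = 0.0891), and Mylpf, the fast regulatory light chain (0.48, adjusted p = 0.115). These 3 stood at 0.42, 0.26 and 0.25 when control replicates 3 and 4 were left out, and at 0.32, 0.18 and 0.11 when knockout replicate 8 was left out too. Neb, Nrap and Pvalb passed in the same 3 settings as Tnni2 (limma, adjusted p = 0.0220 to 0.0417). Tmod1 and Myl6b passed without control replicate 2 and Casq1 without control replicate 1.

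Of the 21 regulators of fibre type that were tested, 2 had an unadjusted p under 0.05 in the higher direction and 8 in the lower, beside 13.6% and 13.3% of all genes, with a median difference of -0.19. Mef2a, of the MEF2 family of muscle transcription factors, had -0.51 (limma, adjusted p = 0.0810), and Gtf2ird1, a factor known for binding upstream of the slow troponin I gene, had -0.49 (adjusted p = 0.0881). Rcan1, an inhibitor of the phosphatase calcineurin, had 0.43 (adjusted p = 0.0949). The values were -0.22, -0.34 and 0.43 when control replicates 3 and 4 were left out. Mef2a passed in the same 3 settings as Tnni2 (limma, adjusted p = 0.0283 to 0.0462), and Gtf2ird1 without control replicate 1.

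Among the 11598 genes that averaged at least 100 normalized counts, those most like the mean pattern of the 3 slow troponins over the 8 libraries were Tpm3 (Pearson r = 0.981) and Myl2, the slow regulatory light chain (0.956). Next came Cd200, Hnrnpa3 and Dnajc2, at 0.924, 0.916 and 0.914, which spanned only 1.42-fold, 1.22-fold and 1.13-fold. The slow essential light chain Myl3 had r = 0.836. The slow myosin heavy chain Myh7 had 0.809, and was far higher in control replicate 3 than in the other libraries. It had 2838, 1899, 15188 and 1787 normalized counts in controls and 1804, 6883, 953.7 and 2881 in knockouts, which differed by -0.53 ± 0.88 on the log2 scale (SE; limma, adjusted p = 0.735) and by 0.06 without control replicates 3 and 4. For the mean of the 3 fast troponins, Tnnc2 included, the 5 most alike were Ndnl2, Dpep1, Arl6ip1, Copz1 and Prrg2 (0.986 to 0.976). For Tnnt3 and Tnni2 alone, a pattern looked at after the values had been seen, the 5 most alike were Cst3, Ppp1r14a, Fam173a, Rpsa and Psmg2 (0.994 to 0.993), ahead of Tpm1 (0.988) and Pvalb (0.968). These correlations describe 8 shared libraries, among them the 3 that stood apart, and carry no test.

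The cardiac troponins were low except in 1 library. Tnnt2, which is also known from embryonic skeletal muscle, had normalized counts of 292.3, 305.4, 417.7 and 226.7 in control and 284.1, 401.1, 314.8 and 2252 in knockout libraries. Tnni3 had 11.6, 40.2, 35.6 and 59.1 in control and 42.7, 81.3, 37.5 and 1281 in knockout libraries. Both were highest in knockout replicate 8, and neither passed (log2 differences 0.81 and 1.82, limma, adjusted p = 0.445 and 0.321). Without this library they were 0.12 and 0.66. Of the 16 heart markers, a list that includes Tnnt2 and Tnni3, 15 were highest in knockout replicate 8. The summed counts of the list were 13470 there, of which these 2 genes held 3533, against 1499 to 2405 in the other 7 libraries. The atrial light chain gene Myl7, at 0 to 4.1 elsewhere, had 1124. Since Tnnc1 is also the cardiac troponin C gene, its value of 4462 in that library stands beside these, and the part of heart RNA in it was not tested. Tnnt1 and Tnni1 also had their next highest value after knockout replicate 6 and control replicate 3 there. The part of heart RNA in these values was not tested either. Without knockout replicate 8 the log2 differences of Tnnt1, Tnni1 and Tnnc1 were 0.32, 0.49 and 0.58.

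The remaining marker lists were read for the other cells of the tissue. Members higher and lower, by an unadjusted p below 0.05, were 4 and 0 of 5 for macrophages, 3 and 0 of 6 for fibro-adipogenic cells, 2 and 0 of 6 for tendon and 2 and 1 of 5 for smooth muscle, beside 13.6% and 13.3% of all genes. The counts were 1 and 0 of 5 both for endothelial and for erythroid cells, 0 and 1 of 8 for developing or denervated fibres, and 0 and 0 for 5 adipocyte and 4 satellite cell markers. None had an adjusted p under 0.05. Summed fibro-adipogenic counts were 114000 to 155200 in control and 153200 to 182300 in knockout libraries, and the part of such cells in the Tnni2 value was not tested.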

How the data were processed

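The labels' protocols name a Norgen Biotek kit for RNA extraction and a NEBNext Ultra II kit for the libraries. STAR, HTSeq, cutadapt, FastQC and DESeq2 were applied with the build GRCm38, per the submitters' processing notes. Versions, annotation and strand setting were not given in the sources used here. Values were deposited by the authors on a log2 scale. With the log2 undone and 1 subtracted, 100% of the values up to 1000 reads lay within 0.1 of a whole read after division by 1 step per library (0.6788 to 1.2897), so that a normalized count is a read count over a size factor. A floor of 3 reads is 2.037 to 3.869 normalized counts, for counting error only. The table has 54091 rows, 27189 of them above 0.

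The test was limma (version 3.58.1, under R 4.3.3) for genes averaging 10 or more, on log2(normalized count + 1), eBayes with trend and robust options, adjusted by Benjamini-Hochberg over all 15657 at 0.05. This scale understates changes of low genes. Ratios were tested by exact permutation in scipy 1.17.1. The fit was tested on simulated counts, which did not hold the shift by transcript length or the heart transcripts seen here. Within groups, the chi-square per gene between libraries was 32.7 to 241.8, so none was a repeat deposit. The members and gene lists were chosen with earlier results of these data known. The text names the members, the cardiac troponins and tropomyosins, up to 3 genes of smallest p per pathway list, the 5 genes most alike in pattern, and neighbours in a troponin gene pair. Marker lists are given by counts, with genes named only where a troponin value moves with them. 1 listed regulator is not analysed here. Alternatives were other pseudocounts, filters, scalings, quality weights, voom, a length and GC trend removed by loess, and libraries left out. Exons came from a GENCODE annotation and promoter windows from RefSeq. Python 3.11.15, numpy 2.4.6, pandas 2.3.3 and matplotlib 3.10.9 made the tables and plots.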

Additional observations from a re-analysis of the deposited data

Results flagged for a closer look

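Of 30 groups of 4 libraries screened, 1 held a library far from the others. The Tnnt2 normalized count of knockout replicate 8 was 2252.4, and on the log2 scale its gap to the next library was 0.834 of the range of the group, above the limit for groups of this size. Chance flags about 1 in 20 such groups. The heart markers that stand highest in the same library are given with the cardiac troponins, and the source of this RNA was not tested.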

How the results depend on the processing

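The number of genes called over the whole table, 1 as reported, was 2 with no filter, 2 with equal totals, 4 with the length and GC trend removed and 1201 with sample quality weights, and ran from 1 to 2048 with 1 library left out. The number of skeletal troponins called, 0 as reported, was 1 with quality weights and 0 to 1 with 1 library left out; the gene was Tnni2. The log2 ratio differences with 1 library left out ran from -0.27 to 0.81 for troponin T, -0.38 to 0.60 for troponin I and -0.15 to 0.86 for troponin C, and their sign turned in 2, 4 and 2 of 8 cases. Such exact permutation tests of 3 against 4 cannot go below p = 0.0571. Division by exon length cannot move these differences. Under the other 4 alternatives they kept their sign; the exact permutation tests without control replicates 3 and 4 cannot go below p = 0.133, and those without knockout replicate 8 as well cannot go below p = 0.200. With the length and GC trend removed, Tnnt3 turned to -0.042 and Tpm4 to -0.038. Myh7 turned to 0.058 without control replicates 3 and 4. With 1 library left out, Tnnt1 ran from -0.086 to 0.93, Tpm4 from -0.007 to 0.12, Myh7 from -1.03 to 0.18, Myl2 from -0.20 to 0.72, Myl3 from -0.000 to 0.83 and Dnajc2 from -0.006 to 0.038. The causes were not tested. The setting without control replicates 3 and 4 and knockout replicate 8 together was chosen after seeing the data. Depth limits Tnnc2, with 70 to 142 reads, more than the other 5 genes, with 993 or more. No paired analysis was possible because the groups share no replicate number.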
